A study of Acomys cahirinus and Mus musculus with 10 samples.

Results

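A set of 9 pigment-cell genes was followed through ear-hole healing in *A. cahirinus*, the spiny mouse, and in *M. musculus*. The genes are Tyr, Tyrp1, Dct, Pmel, Mlana, Mitf, Oca2, Slc45a2 and Kit, chosen by symbol as a list of melanocyte and pigment genes. All 9 of 9 were found in each species, among 22346 *M. musculus* genes and 640585 *A. cahirinus* assembly components present in all 4 tables of a species. RNA came from ear tissue at D0 (uninjured) and at D5, D10, D15 and D20 after an ear punch, with 3 females per species and time point by the study's methods. The later *A. cahirinus* samples carry the label regenerating and the later *M. musculus* samples the label fibrotic. The *M. musculus* were outbred CD1 mice, an albino stock. By the study's methods the punch was made under isoflurane, and the labels name no transgene or knockout.

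Melanocytes make melanin inside melanosomes and pass it to keratinocytes and to growing hair. Tyr carries out the rate-limiting step of melanin synthesis, and Tyrp1 and Dct act on later intermediates. Pmel forms the fibrils on which melanin is laid down, and Mlana is a melanosome protein. Oca2 and Slc45a2 are melanosome membrane proteins that control its ion balance and acidity. Mitf is the transcription factor that switches on most of these genes, and Kit is the receptor through which Kit ligand sustains melanocytes. Mast cells also use Mitf and Kit, so those 2 genes do not mark melanocytes alone. In whole ear tissue, fewer melanocytes and less RNA per melanocyte cannot be told apart.

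The *M. musculus* Tyr and Mlana transcripts and the *A. cahirinus* components paired with them are shown as coding stretches from the deposited reference sequences, because the pairing of species rests on such matches. In Tyr the capitals mark the cysteine codon altered in the classic albino allele of laboratory mice. Both reference sequences hold the same codon there, and 80 of the 87 bases shown are the same (92.0%). The *M. musculus* letters are those of the mm10 annotation, not of the CD1 animals, whose own allele was not analysed here.
Tyr, *M. musculus*: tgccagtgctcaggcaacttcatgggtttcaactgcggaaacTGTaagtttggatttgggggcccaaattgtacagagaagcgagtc
Tyr, *A. cahirinus*: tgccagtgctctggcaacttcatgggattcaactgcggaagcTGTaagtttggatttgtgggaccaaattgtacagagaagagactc
Mlana had the shortest match of the 9 genes, with 119 aligned bases at 89.1% identity. In its stretch of 60 bases the capitals mark the 7 bases that differ between the species.
Mlana, *M. musculus*: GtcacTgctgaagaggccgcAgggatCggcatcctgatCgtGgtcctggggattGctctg
Mlana, *A. cahirinus*: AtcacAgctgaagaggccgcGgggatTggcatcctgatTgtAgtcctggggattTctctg

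Over the other members the identity ran from 87.7% for Kit, over 3277 bases, to 95.0% for Mitf, over 2127 bases. On GRCm38 the genes lie at chr7:87424771-87493512 (Tyr, minus strand), chr4:80834123-80851719 (Tyrp1, plus), chr14:118012790-118052244 (Dct, minus), chr10:128704195-128720238 (Pmel, plus) and chr19:29697824-29708634 (Mlana, plus). Mitf lies at chr6:97807052-98021349 (plus), Oca2 at chr7:56239760-56536518 (plus), Slc45a2 at chr15:11000721-11029233 (plus) and Kit at chr5:75574916-75656722 (plus). These spans cover the whole annotated gene, exons and introns.

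The values below are normalized counts, either a group mean or the value of a single library. The deposited tables hold no column per animal, and the library values were recovered from the 2 fold changes of each table. They could not be recovered for Tyr at D15 and Kit at D20 in *M. musculus*, for which the group mean is given. A gene was called when the posterior probability of a change in the authors' table was at least 0.95. Shares of features called in this way are over every gene, or every component paired with a named gene, whatever its level. Such shares at a mean of at least 10 are not given, so this background is not matched to the members in level. Log2 fold changes compare a day with D0, so that a positive value is higher after injury. A second test, limma on the recovered library values, is given with its Benjamini-Hochberg adjusted p. The *A. cahirinus* D15 group stands apart: 2 distinct libraries were recovered there, and 1 of them carries 2.04 times the weight of a D0 library in the group mean. Its deposited means and posterior probabilities therefore rest on 2 libraries with 1 counted about double, and D15 values of the melanin genes, of Oca2 and of the medians are also given with each library counted once (n = 2). The sum of group means ran from 7330084 to 9409080 in *M. musculus* and from 14454829 to 18203633 in *A. cahirinus*, and the median change of well-expressed features stayed within 0.03 of 0 on the log2 scale.

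On a per-kilobase scale Oca2 and Slc45a2 were lowest at D0 in both species. The means of the genes above them came in a different order, but that order rests on the sequence length used. For Dct the length was 5110 bp in *A. cahirinus* and 2263 bp in *M. musculus*, and for Tyr 1938 and 3570 bp. The *A. cahirinus* components of Kit and Mitf hold 69.2% and 83.1% of the D0 level summed over the components that match each gene best. In *A. cahirinus* Tyrp1 had the highest mean, 122 ± 38.8 normalized counts per kb (SD, n = 3), followed by Mitf at 98.0 ± 4.35, Kit at 94.8 ± 11.4, Pmel at 72.8 ± 19.8 and Dct at 62.1 ± 7.77. Neighbours in that run of 5 had overlapping library ranges. Mlana at 45.4 ± 6.14 lay apart from Dct and overlapped with Tyr at 32.0 ± 8.57, and Slc45a2 (6.64 ± 5.22) and Oca2 (6.61 ± 3.93) were lowest. In *M. musculus* Tyrp1 (64.4 ± 26.8), Dct (64.3 ± 30.3), Tyr (48.4 ± 7.65), Mitf (45.0 ± 3.25) and Pmel (43.4 ± 7.87) overlapped neighbour by neighbour. Kit (28.1 ± 5.04) lay apart from Pmel and overlapped with Mlana (26.2 ± 9.98). Oca2 (3.86 ± 2.03) and Slc45a2 (2.28 ± 0.437) were again lowest. Levels were not compared between the species, whose tables were normalized separately. The melanocyte markers were present in uninjured ears of both species, the albino stock included.

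In *M. musculus* several pigment genes fell at D5, and at D20 none was below D0 by the call. At D5, 4 members fell (Tyr, Tyrp1, Pmel and Oca2) and none rose. Of all 23023 genes tested, whatever their level, 13.6% were called lower and 16.5% higher. Over the 9 members the median log2 fold change was -1.20 on D5, then -0.45 (D10), -0.02 (D15) and 0.49 (D20), beside a median near 0 for well-expressed genes. With 1 library of D0 or the later day left out, the median ran from -1.47 to -0.90 at D5, from -0.67 (without the first D10 library) to -0.25 (without the third) at D10 and from -0.25 to 0.12 at D15, where its sign turned. At D20 it ran from 0.18, without the first D0 library, to 0.54. At D10 Tyrp1 and Mitf fell and Kit rose, against 14.1% of genes called lower and 15.1% higher. At D15 Kit alone was called (higher, background 13.2%), and at D20 Mitf and Kit rose (background 12.3%).

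**Figure D1:**
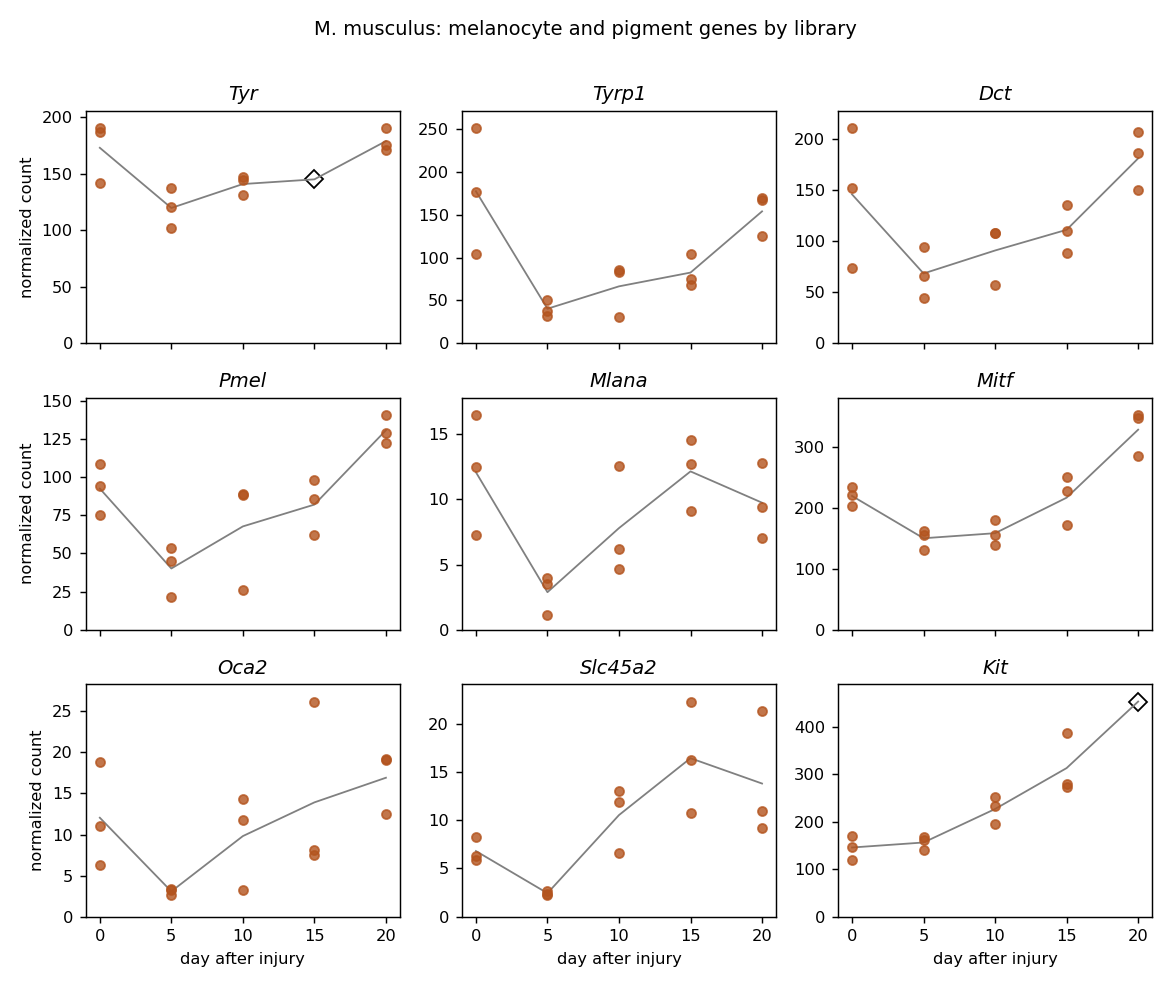
Normalized count (vertical axis, from 0) against day after injury for the 9 genes in *M. musculus*. Points are recovered libraries, the grey line joins group means, and open diamonds are group means without library values (Tyr at D15, Kit at D20). Tyrp1 libraries at D5 sit between 32 and 51, below the lowest D0 library at 104, and Kit climbs from a mean of 145.8 to 452.9.

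Tyrp1, which stabilizes tyrosinase and acts late in melanin synthesis, had the largest fall among the members in *M. musculus*. Its libraries were at 104, 252 and 177 at D0 and at 37.7, 51 and 32 at D5. The ranges did not overlap, and the mean fell 4.41-fold (log2 fold change -2.14, adjusted p = 0.000895 by limma). At D10 the libraries were at 82.9, 85.1 and 31.1, again all below D0 (log2 fold change -1.42, posterior probability 0.961, adjusted p = 0.00838 by limma). At D15 they were at 75.5, 104 and 68.2, with a posterior probability of 0.806 and an adjusted p of 0.0421 by limma, so the 2 tests differ there. By D20 they stood at 170, 125 and 167, inside the D0 range.

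Tyr itself moved less. Its D0 libraries were at 141, 187 and 190 and its D5 libraries at 120, 137 and 102, a 1.45-fold fall without overlap (log2 fold change -0.53, posterior probability 0.979, adjusted p = 0.00789 by limma). At D10 the values were 145, 147 and 131 (log2 fold change -0.30, posterior probability 0.661), the D15 mean was 144.9, and the D20 libraries at 190, 171 and 175 overlapped with the D0 range. Dct, the dopachrome tautomerase, was at 73.8, 210 and 152 at D0 and at 65.7, 94 and 44.5 at D5, with overlapping ranges. Its log2 fold change of -1.09 had a posterior probability of 0.608, while limma gave an adjusted p of 0.0371. Its later values were -0.68, -0.39 and 0.31, none called.

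Pmel, the fibril protein, was at 74.9, 94.1 and 108 at D0 and at 45, 53.8 and 21.8 at D5. It fell 2.30-fold (log2 fold change -1.20, adjusted p = 0.0252 by limma). By D20 all 3 libraries, at 129, 122 and 141, lay above D0, but the log2 fold change of 0.50 was not called (posterior probability 2.04e-07, adjusted p = 0.362 by limma). Mlana had few reads: 7, 14 and 9 expected counts at D0 and 5, 4 and 1 at D5. Its normalized values of 7.29, 16.5 and 12.4 against 4.01, 3.52 and 1.14 did not overlap, yet the posterior probability was 1.76e-07 and the limma adjusted p 0.00273. Mlana is therefore called by 1 of the 2 tests.

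Oca2 was at 6.24, 18.8 and 11.1 at D0 and at 3.21, 2.64 and 3.43 at D5, and fell 3.89-fold (posterior probability 0.991, adjusted p = 0.0252 by limma). Those D5 values stand for 4, 3 and 3 reads. Slc45a2 took another course. It went from 6.24, 5.88 and 8.3 at D0 to 2.4, 2.64 and 2.28 at D5, with 2 or 3 reads per library. At D15 its libraries were at 10.8, 22.3 and 16.2 and at D20 at 9.17, 10.9 and 21.3, all above D0. None of these was called by the posterior probability (1.52e-09 at D5, 0.923 at D15, 0.727 at D20). The limma adjusted p was 0.00799, 0.0117 and 0.0472. Its D0 and D5 means, 6.81 and 2.44, were under 10, the least mean for the limma fit. Slc45a2 passed that filter only through D10, D15 and D20, with means of 10.5, 16.4 and 13.8. These adjusted p values are therefore no support for a change.

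Mitf was at 222, 203 and 235 at D0. At D5 its libraries were at 157, 132 and 163, all below D0, with a posterior probability of 0.00232 and an adjusted p of 0.00846 by limma. At D10 they were at 181, 139 and 156, and Mitf fell (log2 fold change -0.47, posterior probability 0.999, adjusted p = 0.02 by limma). At D20, at 353, 285 and 348, it rose 1.49-fold (adjusted p = 0.00887 by limma). Kit rose at D10, D15 and D20. From 148, 119 and 171 at D0 it went to 252, 234 and 195 at D10, to 280, 272 and 386 at D15 and to a mean of 452.9 at D20. The rise was 1.56-, 2.15- and 3.11-fold, with limma adjusted p of 0.0109 at D10 and 0.000584 at D15. At D5 Kit was at 168, 140 and 161, overlapping with D0.

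Counted by ranges, 7 of 9 members had all D5 libraries below D0 and none above. Among *M. musculus* genes with recovered libraries and a mean of at least 10, 35.2% lay below and 30.6% above. At D10 the members counted 2 below and 1 above (32.7% and 30.3% of genes), at D15 1 and 2 of 8 (28.6% and 30.3%), and at D20 0 and 3 of 8 (27.3% and 29.3%). By limma 8 of 9, 3 of 9, 3 of 8 and 2 of 8 members were called, where 59.3%, 53.7%, 53.6% and 45.5% of genes were called in either direction. Past D5 the members' share of limma calls is below that of the 8285 to 9965 genes in that fit with recovered libraries. At D15 and D20 the members above D0, 2 and 3 of 8, include Slc45a2, whose D0 mean was 6.81. It reached a mean of 10 only through its later, higher groups, so neither count is support for an excess. Slc45a2 is among the 7 and the 8 at D5, though its D0 and D5 means were under 10. Mlana and Oca2 are also among them, with D5 means of 2.89 and 3.09. In that comparison they met the least mean only through D0, so their part in these counts is no support for a fall.

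Within a time point the pigment genes tended to be low in the same library. In *M. musculus* at D0, D5 and D10, 1 library had the lowest value of all 5 of Tyr, Tyrp1, Dct, Pmel and Mlana, at a median of 0.604, 0.654 and 0.595 of the group mean. The 5 genes are measured in the same RNA and are not independent. With each of the 6 libraries of D0 and D5 left out in turn, limma still called Tyr, Tyrp1 and Mitf at D5 all 6 times. Pmel was called 3 times and Oca2 and Dct 2 times each. Slc45a2 was also called 6 times, but it is in that fit only through its later, higher groups, so this is no support for a fall. Kit at D10 and D15 and Mitf at D20 were called all 6 times, and Mitf at D10 3 times. Slc45a2 was called 5 times at D15 but 1 time at D20, where its adjusted p reached 0.198. The filter that let it into the fit rests on those higher groups, so these calls are no support for a rise. Tyrp1 was called all 6 times at D10 and 2 times at D15, where its adjusted p reached 0.160.

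In *A. cahirinus* the median of the pigment genes was near its D0 level at D5 and below it from D10. Over the 9 members the median log2 fold change was 0.14 on D5, then -0.56 (D10), -0.84 (D15) and -0.46 (D20). For components paired with a named gene, whatever their level, the medians were 0.21, 0.10, 0.04 and -0.02. The D15 median was -0.72 with each library counted once, -0.32 from the first library alone and -1.04 from the library weighted double. With 1 library left out, the median ran from 0.02 to 0.33 at D5, from -0.71 to -0.33 (without the first D0 library) at D10 and from -0.51 to -0.32 at D20. At D5 Mitf alone was called, lower, where 11.2% of components paired with a named gene were called lower and 31.1% higher. At D10 Tyr and Dct fell and Kit rose, against 11.5% of components called lower and 21.6% higher. At D15 the same 3 genes were called in the same directions by the deposited posterior probability (background 14.5% lower, 18.7% higher), and at D20 Dct fell and Kit rose (15.1% lower, 13.0% higher). The species were fitted separately, and the difference between their courses was not tested.

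**Figure D2:**
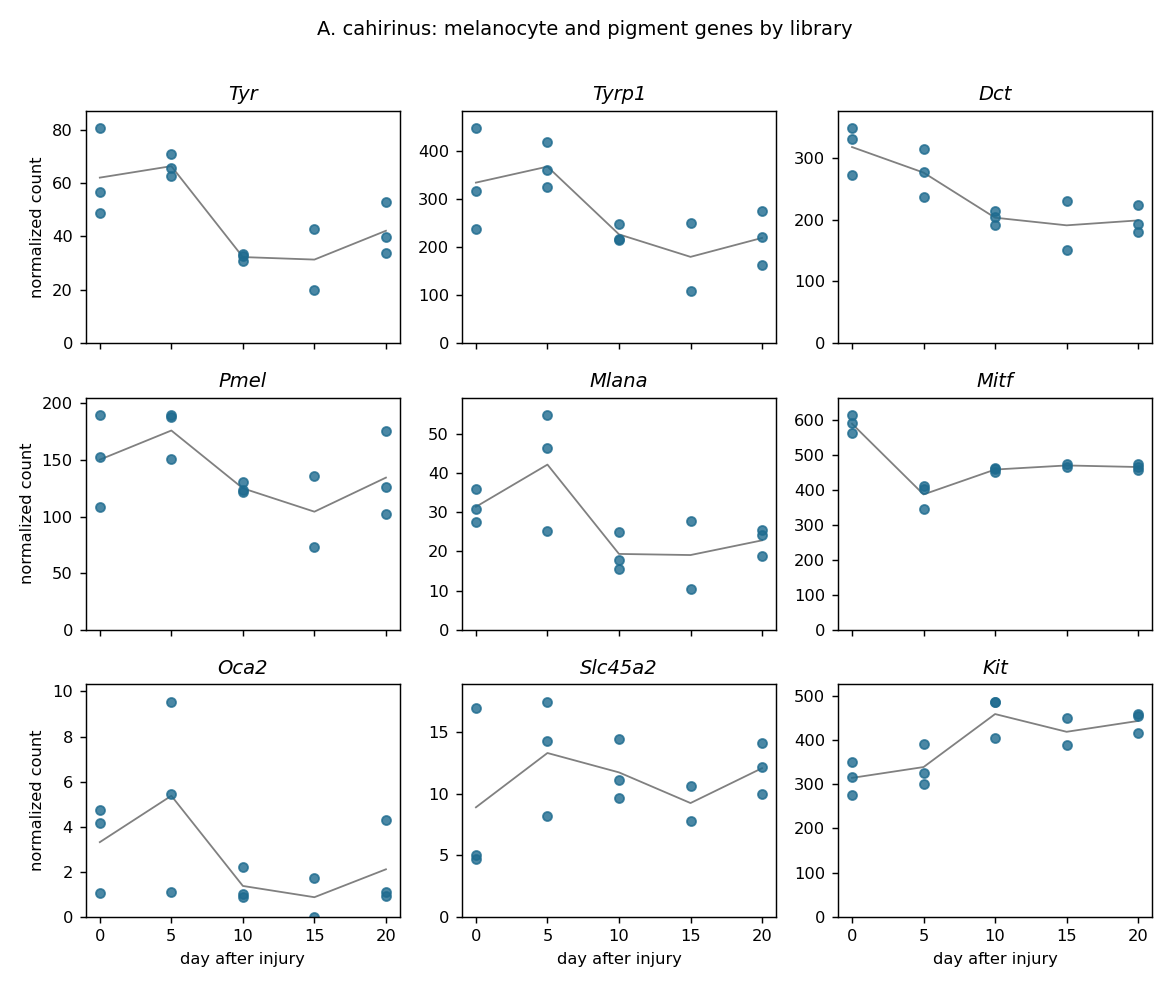
Normalized count (vertical axis, from 0) against day after injury for the 9 genes in *A. cahirinus*. Points are recovered libraries, 2 at D15 and 3 elsewhere, and the grey line joins the means with each library counted once. Mitf libraries sit between 346 and 412 at D5, below the lowest at D0, 562.

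Dct was called on the most days of the melanin genes. Its libraries were at 348, 331 and 273 at D0, at 191, 204 and 215 at D10 and at 180, 224 and 193 at D20, without overlap. The falls were 1.56-fold at D10 and 1.60-fold at D20 (adjusted p = 0.0327 and 0.0251 by limma). At D15 the 2 libraries were at 230 and 151, and the log2 fold change was -0.84 as deposited and -0.74 with each library counted once (adjusted p = 0.0272 by limma). At D5 it was at 237, 277 and 314, overlapping with D0.

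Tyr was at 80.7, 56.6 and 48.8 at D0 and at 65.6, 62.5 and 71 at D5. At D10 the libraries lay close together at 33.3, 32.5 and 31, a 1.92-fold fall (posterior probability 0.987, adjusted p = 0.0361 by limma). At D15 they were at 42.6 and 20, a log2 fold change of -1.17 as deposited (posterior probability 0.974) and -0.99 with each library counted once (adjusted p = 0.0344 by limma). By D20, at 33.8, 39.7 and 52.8, the ranges overlapped. Tyrp1, at 449, 318 and 238 at D0, was called on no day. Its log2 fold changes were 0.14, -0.56, -1.10 and -0.61, and the D15 value was -0.90 with each library counted once, from libraries at 251 and 109.

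Pmel was also called on no day, with 190, 152 and 108 at D0 and log2 fold changes of 0.23, -0.27, -0.68 and -0.16, the D15 value being -0.53 with each library counted once. Mlana was at 27.4, 35.9 and 30.8 at D0, at 17.7, 24.8 and 15.5 at D10 and at 18.8, 25.4 and 24.2 at D20. Both later groups lay below D0 without being called (limma adjusted p of 0.191 and 0.4). At D15 the Mlana log2 fold change was -0.95 as deposited (posterior probability 0.945) and -0.72 with each library counted once. The library weighted double at D15 had the lower value for all 5 of Tyr, Tyrp1, Dct, Pmel and Mlana, at a median of 0.638 of the group mean, while the 2 libraries were near each other for Mitf (473 and 467).

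Oca2 and Slc45a2 had few reads in *A. cahirinus*. Oca2 had from 0 to 7 reads per library over all days, and Slc45a2 stood at 4.99, 4.72 and 17 at D0. Neither was called on any day by the posterior probability. In the limma runs that left out 1 library, Slc45a2 was called 1 of 6 times at D5, D10 and D20. It entered that fit only through later groups, as its D0 mean of 8.89 was under 10. The Oca2 component carries 28.1% of the D0 level summed over the 5 components that match Oca2 best. That sum was 11.8 at D0 and 9.65, 2.91, 3.87 and 3.95 on the later days (log2 fold changes -0.29, -2.01, -1.61 and -1.58), against 0.70, -1.27, -1.51 and -0.65 for the component alone, so the sign at D5 turns. With each D15 library counted once the component was at -1.93, from 0 and 2 reads.

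Mitf was at 615, 590 and 562 at D0 and at 346, 412 and 403 at D5, a 1.52-fold fall (adjusted p = 0.00328 by limma). It stayed below every D0 library at D10 (451, 460, 463), D15 (473, 467) and D20 (464, 458, 473). These later log2 fold changes, -0.36, -0.33 and -0.34, were not called, with limma adjusted p of 0.0562, 0.121 and 0.0694. Kit was at 317, 350 and 275 at D0 and rose to 403, 486 and 485 at D10 and to 458, 454 and 416 at D20. The rises were 1.46- and 1.41-fold (adjusted p = 0.0294 and 0.0413 by limma). At D15 Kit was at 449 and 388, a log2 fold change of 0.38 as deposited (posterior probability 0.954), and limma with each library counted once gave an adjusted p of 0.123. With each library of D0 and the later day left out in turn, limma called Mitf at D5 6 of 6 times. Dct and Tyr at D10 were called 1 of 6 times each, Kit at D10 2 of 6, Dct at D20 2 of 6 and Kit at D20 1 of 6. The adjusted p then reached 0.103 for Dct, 0.131 for Tyr and 0.102 for Kit at D10. At D15 Dct and Tyr were called 2 of 5 times each, with an adjusted p of up to 0.273 and 0.349. In 2 of those 5 runs a single D15 library remained, so the spread came from the other groups and that library was assumed to vary as they do. From the first D15 library alone the log2 fold change was -0.46 for Dct and -0.54 for Tyr, and without the first D0 library it was -0.75 for Tyr.

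Counted by ranges, *A. cahirinus* had 1 of 9 members wholly below D0 at D5 and 0 above. Of components paired with a named gene, with recovered libraries and a mean of at least 10, 27.8% lay below and 42.5% above. The counts were 4 and 1 at D10 (27.5% and 37.9% of components), 3 and 1 at D15 (32.5% and 41.0%) and 3 and 1 at D20 (33.6% and 29.4%). By limma 1, 3, 2 and 2 of 8 members were called on the 4 days. Of all components in that fit, paired with a named gene or not, 28.0%, 19.1%, 17.3% and 19.8% were called in either direction. The limma share among paired components alone was not computed, so these shares are not a like background for the members. Oca2 had too few reads to enter that fit.

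**Figure D3:**
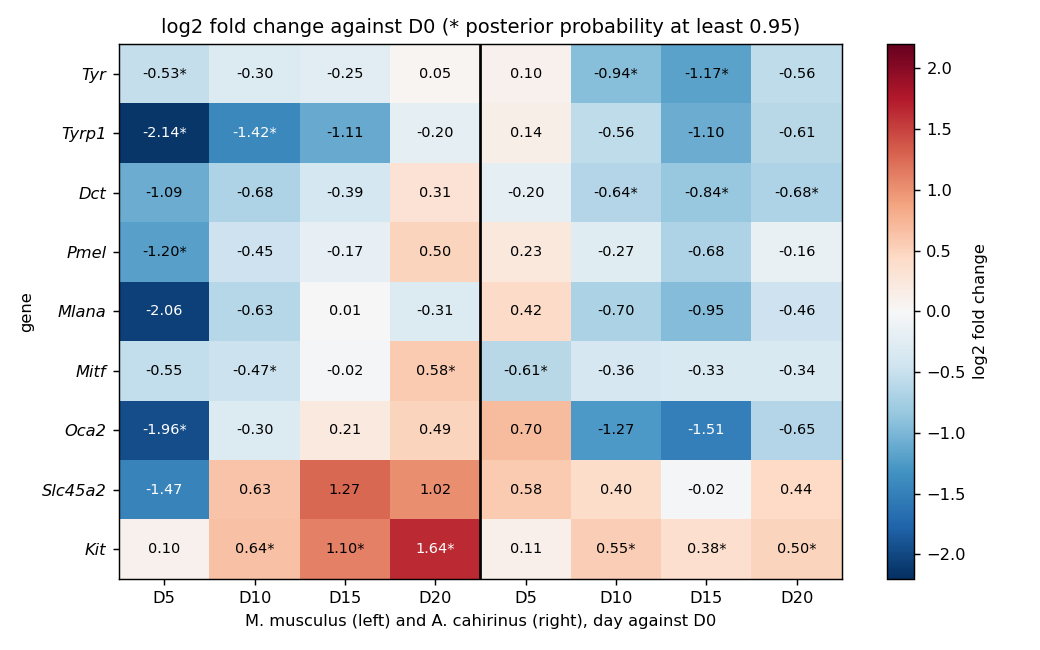
Log2 fold change of each day against D0 (colour and printed value) for the 9 genes, with *M. musculus* in the 4 left columns and *A. cahirinus* in the 4 right columns. Asterisks mark a posterior probability of at least 0.95. The lowest value is -2.14, for Tyrp1 at D5 in *M. musculus*, and the highest is 1.64, for Kit at D20 in *M. musculus*.

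The wider pigment machinery was followed by 3 further lists. Genes of melanosome biogenesis and transport, many of them used in lysosomes of other cells too, had 11 of 21 measured called higher, 10 not called and none lower at D5 in *A. cahirinus*, beside 31.1% of components higher. At D10, D15 and D20 there 4, 3 and 2 were higher and 0, 0 and 1 lower, shares no larger than the 21.6%, 18.7% and 13.0% of components higher. In *M. musculus* 3, 1, 0 and 4 were higher and 1, 4, 3 and 4 lower on the 4 days (of 21 at D5, of 22 later), where 16.5%, 15.1%, 13.2% and 12.3% of genes were higher and 13.6%, 14.1%, 12.5% and 11.9% lower. In *A. cahirinus* Gpnmb, a melanosome glycoprotein also made by macrophages, had a D0 mean of 287.6 and reached 855.5 at D5 (log2 fold change 1.57). Myo5a, the motor that carries melanosomes, went from 401 to 1022 there (1.35). Myo5a was also higher in *M. musculus* at D5, D10 and D20, by 0.26, 0.15 and 0.23 on the log2 scale. In *M. musculus* Rab27a, which links melanosomes to that motor, was lower from D10, with log2 fold changes of -0.90, -1.14 and -1.13, and Lyst was lower on all 4 days (-0.33, -0.44, -0.35 and -0.30).

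Regulators of the melanocyte lineage were counted in the same way. In *A. cahirinus* 3, 6, 7 and 4 of 16 were lower at D5, D10, D15 and D20, and 1 was higher, at D20. In *M. musculus* 5, 3, 3 and 4 of 17 were lower and 3, 1, 2 and 3 higher. Of all *A. cahirinus* components of named genes, 11.2%, 11.5%, 14.5% and 15.1% were called lower and 31.1%, 21.6%, 18.7% and 13.0% higher. Of *M. musculus* genes, 13.6%, 14.1%, 12.5% and 11.9% were lower and 16.5%, 15.1%, 13.2% and 12.3% higher. Several of the *M. musculus* counts, such as 3 of 17 lower at D10 and 2 of 17 higher at D15, are near these shares. Usf1, a transcription factor that acts on pigment gene promoters, rose on all 4 days in *M. musculus* (log2 fold changes 0.83, 0.80, 0.69 and 0.68). Sox10 drives Mitf in melanocytes and is also a Schwann cell factor. In *A. cahirinus* it had log2 fold changes of -1.03, -0.91, -0.79 and -0.97 on the 4 days, the last not called. In *M. musculus* Sox10 had -1.52, 0.41, 1.03 and 0.93, none of them called. Pax3 in *M. musculus* had -1.93, -1.39, -1.25 and -0.63 on the 4 days, the last not called, from a D0 mean of 28.9. Sox5 fell on all 4 days in *M. musculus* (from 323.1 to 71.2 at D5). In *A. cahirinus* it fell on the first 3 (from 116.9 to 52.9 at D5), and its D20 log2 fold change of -0.88 was not called. The cells behind the Sox5 values were not identified.

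Among ligands and antagonists acting on melanocytes, Kitl, the ligand of Kit, fell in *A. cahirinus* at D10, D15 and D20 (log2 fold changes -0.69, -0.85 and -0.80), days on which Kit rose. Edn3, a melanocyte growth factor, fell there on all 4 days, from 69.6 to 24.4, 21.0, 9.96 and 23.2. In *M. musculus* Corin, a protease of the dermal papilla that limits agouti signalling, fell on all 4 days, from a mean of 1566 to 106.5 at D5, and Hgf rose on all 4 (0.88 to 1.27). Of this list 4, 4, 2 and 3 were lower and 2, 3, 3 and 3 higher in *M. musculus* (of 13, and of 14 at D20), against 2, 4, 3 and 4 lower and 1, 1, 0 and 0 higher in *A. cahirinus* (of 11). Beside the shares of all features given above, the *M. musculus* counts of 2 of 13 lower at D15 and 2 of 13 higher at D5 are near the background (12.5% and 16.5%).

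Markers of other cells moved on the same days. Of 10 mast cell genes measured, *M. musculus* had 6, 6, 7 and 9 called higher on the 4 days, and *A. cahirinus* had 3, 8, 8 and 6. In *M. musculus* 1 gene was lower at D10, D15 and D20. Of all *M. musculus* genes 16.5%, 15.1%, 13.2% and 12.3% were called higher. For *A. cahirinus* components the shares were 31.1%, 21.6%, 18.7% and 13.0%, so that 3 of 10 at D5 in *A. cahirinus* is no more than the background. Their summed level was 656 at D0 and 1660 to 2220 later in *M. musculus*. In *A. cahirinus* it was 1929 at D0 and 2479 to 4058 later. The tryptase Tpsab1 rose from 9.66 to 223.4 at D20 in *M. musculus*, and from 9.54 to 217 at D10 in *A. cahirinus*. Mast cells carry Kit and Mitf, and their part in the Kit and Mitf values was not tested. Mcpt4, Cma1 and Ms4a2 of this list were not measured.

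Genes of the hair matrix, where follicle melanocytes deliver pigment, were called in both directions, and the difference between the species was not tested. In *M. musculus* 4 of 16 were lower at D5, and 11, 11 and 12 were higher at D10, D15 and D20, with 2, 1 and 1 lower. The background was 15.1%, 13.2% and 12.3% higher on those 3 days and 13.6%, 14.1%, 12.5% and 11.9% lower from D5 on, so that 2 of 16 lower at D10 and 1 of 16 later are no more than it. Their summed level went from 2383 to 1230, 8145, 25201 and 36730. Gata3, the listed gene called on the most days in *M. musculus*, was lower on all 4 days there and in *A. cahirinus*. Its mean log2 fold changes over the days were -1.46 and -0.57. Krt35, a hair cortex keratin, had a D0 mean of 2.81 in *M. musculus* and was at 221.4, 506.5 and 361.3 at D10, D15 and D20. In *A. cahirinus* Krt35 fell at D5, D10 and D15 (log2 fold changes -1.62, -2.09 and -0.87). At D20 its log2 fold change there was positive and not called. In *M. musculus* Krt34 and Krt86 also rose, but share sequence with near-identical hair keratins, so their separate values are uncertain. In *A. cahirinus* 4, 5, 4 and 2 of 10 were lower and 2 were higher at D15 and at D20. Components were lower in 11.2%, 11.5%, 14.5% and 15.1% of cases and higher in 18.7% and 13.0% at D15 and D20, so that 2 of 10 higher at D15 and 2 of 10 lower at D20 are near the background. The sum went from 9960 to 3837 at D5 and 8945 at D20, and Krt71, an inner root sheath keratin, fell on all 4 days. Krt71 made up 84.7% of that D0 sum. The other 9 genes summed to 1519 at D0 and to 1185, 916, 1800 and 4915 on the later days, 3.24 times the D0 sum at D20. Krt25, another inner root sheath keratin, rose there from 115.3 to 486.1 at D15 and 2012 at D20, and Tchh, trichohyalin, from 102.7 to 448.0 and 1643. Both were named after their values were seen, and both also rose at D10, D15 and D20 in *M. musculus*. The *A. cahirinus* list had a median log2 fold change of -0.54, -1.24, -0.45 and 0.60 on the 4 days. For *M. musculus* the medians were -0.47, 5.14, 6.66 and 7.06. The part of hair growth in the pigment gene values was not tested.

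Schwann cell genes, which share Sox10 with melanocytes, were 8, 7, 6 and 4 lower of 11 in *M. musculus* and 7, 8, 9 and 8 lower of 11 in *A. cahirinus*, with 1 higher at D20 in *M. musculus*. Of all *M. musculus* genes 13.6%, 14.1%, 12.5% and 11.9% were called lower. For *A. cahirinus* components the shares were 11.2%, 11.5%, 14.5% and 15.1%. S100b, a calcium-binding protein of Schwann cells, fell on all 4 days in both species, to 74.4 from 733.6 at D5 in *M. musculus* and to 132.8 from 884.8 at D20 in *A. cahirinus*. Of the macrophage genes, 9 of 10 in *M. musculus* and 8 of 8 in *A. cahirinus* were higher at D5, beside 16.5% and 31.1% of all features. By D20, 9 of 10 were higher in *M. musculus* (background 12.3%), and 1 of 8 was higher and 1 lower in *A. cahirinus* (13.0% and 15.1%). The part of either cell type in the pigment gene values was not tested.

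**Figure D4:**
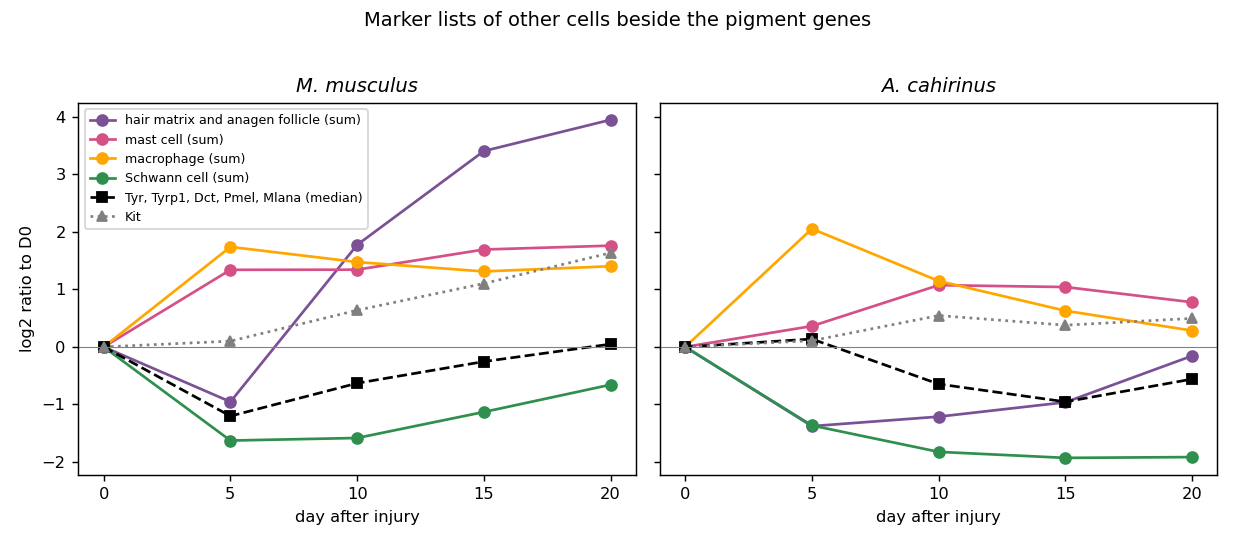
Log2 ratio to D0 against day after injury in *M. musculus* (left) and *A. cahirinus* (right). Solid lines give the summed level of 4 marker lists, the dashed line the median log2 fold change of Tyr, Tyrp1, Dct, Pmel and Mlana, and the dotted line Kit. In *M. musculus* the median goes from -1.20 at D5 to 0.05 at D20 while the hair matrix sum goes from -0.95 to 3.95. In *A. cahirinus* the median at D15 is -0.95 as deposited and drawn, -0.74 with each library counted once and -0.42 from the first library alone, beside -0.64 at D10, and Krt71 makes up 84.7% of the hair matrix sum at D0.

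The genes whose 4 log2 fold changes lay nearest to the median course of Tyr, Tyrp1, Dct, Pmel and Mlana were sought among named genes called on at least 1 day. In *M. musculus*, of 8822 candidates, they were Glt8d2, Prpf40b, Tmem8b, Lgr4 and Syde2, at a root mean square distance of 0.061 to 0.105 over the 4 days. The 5 pigment genes themselves lay farther from that median, at 0.161 (Dct) to 0.758 (Tyrp1). In *A. cahirinus*, of 7811 candidates, the nearest were Hacl1, Hr, Krt79, Gk5 and Mfsd2a, at 0.076 to 0.125. There the 5 pigment genes lay at 0.087 (Tyrp1) to 0.311 (Pmel). All comparisons of a species share its D0 libraries, so closeness over 4 days is a description only.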

How the data were processed

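Strand-specific libraries were sequenced, reads were counted by the authors with RSEM (*M. musculus* on mm10 annotations, *A. cahirinus* on a Trinity assembly), and each day was compared with D0 by EBSeq. The deposited tables give, per gene, 2 fold changes (ratio of D0 to the day) and a posterior probability, a score from 0 to 1. The deposited BLASTN table gives identity in percent, alignment length and bit score. These columns of the authors' comparisons are the only measurements and were used as such. The GENCODE vM21 annotation (GRCm38, the build of mm10) gave coordinates.

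*M. musculus* gene numbers were named by placing reference transcripts along the annotation with minimap2 2.31-r1302. Of 1907 held-out numbers placed, 1881 were right (98.6%), and 85 were not placed. Each gene was paired with its top BLASTN component below 99% identity.

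Group means follow exactly from the 2 fold changes. Expected counts per library, multiples of 0.01, were then recovered as the combination matching the means. All groups were solved for 12993 of 22346 *M. musculus* genes and for 166445 of 179363 *A. cahirinus* components tried, and features of high mean were missed more often. On simulated data 0 groups were solved wrong. A further 9 member groups (Tyr D10 and D20, Dct D20, Mitf D5 and D15 in *M. musculus*, Tyrp1 D5, Pmel D10, Mitf D20 and Kit D20 in *A. cahirinus*) were solved by a second search. It took a single match with at least 2 whole counts or, failing that, a single match in hundredths, if need be the only one with values within 3-fold of each other. In 180 simulated draws near these counts, 0 were solved wrong. Their fractional parts came from features the first search had solved, so the check may be easier than the real case. limma 3.58.1 (R 4.3.3) was fitted per species to log2(normalized value + 1), for features with a mean of at least 10 in at least 1 group. This departs from the planned design, which foresaw no value per library, and was chosen after seeing the data, as were the values with each D15 library counted once and the medians without each library. In simulated 4-fold changes at D5 limma found 98.0% of changed features in *M. musculus* and 96.0% in *A. cahirinus*. The simulation gave all features the same dispersion, and most member changes were smaller than 4-fold. These shares therefore do not give the power for the members, and false calls in the simulation are not given here. Samples with the same label were taken as separate animals by the study's methods.

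The members and lists were chosen with earlier results of these data known. Named list genes were up to 4 per list and species, those called on the most days, then by mean log2 fold change, with a mean of at least 10. Per-kilobase levels used the longest reference transcript or component. Alternatives were a posterior probability of 0.99, a least log2 fold change of 1, a least mean of 10, the second fold change, a pseudocount of 1, another choice of component and centring on the median.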

Additional observations from a re-analysis of the deposited data

Results flagged for a closer look

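Mitf at D20 moved in opposite directions in the 2 species. Every *M. musculus* library (353, 285 and 348) lay above its D0 range, with a log2 fold change of 0.58, and every *A. cahirinus* library (464, 458 and 473) lay below its own, with -0.34. The *A. cahirinus* value was not called, and the difference between the species was not tested.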

How the results depend on the processing

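No paired analysis was possible because the deposited tables carry no replicate numbers. Of the member log2 fold changes under the other settings, with each D15 library counted once and with a library left out, 706 moved by less than the spread between libraries and 1 did not: Slc45a2 at D5 in *M. musculus* was -1.17 with a pseudocount of 1, added to the means on the scale of that day's own table, in place of -1.47. Of the medians over the members, 83 moved by less than the spread of the libraries' medians and 1 did not: without the first D0 library the *A. cahirinus* D10 median was -0.33, where leaving out 1 library gave -0.71 to -0.33. Both spreads are those of single libraries. Leaving out 1 library shifts a group mean by less than that in nearly every case. For those settings the counts were thus close to fixed in advance and say little about stability. The *M. musculus* D20 median was 0.18 without the first D0 library, and the D15 median in *A. cahirinus* ran from -1.04 to -0.32. With a least log2 fold change of 1, the members called were 1 at D10 and 1 at D20 in *M. musculus*, and 0, 0, 1 and 0 at D5, D10, D15 and D20 in *A. cahirinus*. With a posterior probability of at least 0.99, 1 member was called at D15 in *A. cahirinus*. By limma, 8 members were called at D5 and 3 at D15 in *M. musculus*, against 4 and 1 by the posterior probability. Slc45a2 is among the limma calls on both days, and Mlana and Oca2 at D5. With a least log2 fold change of 1, calls over all days were 4 and 6 for melanosome genes, 9 and 6 for lineage regulators and 11 and 8 for ligands (*M. musculus*, then *A. cahirinus*), 11 for hair genes and 11 for mast cell genes in *A. cahirinus*. When each library was left out in turn, limma called 5 to 8 members at D5, 2 to 5 at D10, 2 to 3 at D15 and 1 to 2 at D20 in *M. musculus* (8, 3, 3 and 2 with all libraries), and 1 to 2, 0 to 3, 0 to 4 and 0 to 2 in *A. cahirinus* (1, 3, 2 and 2). In the order of their steps, the first D0 library took the *A. cahirinus* count to 0 at D10, D15 and D20 and the *M. musculus* count to 5 at D10. The second D0 library took it to 1, 0 and 1 on those *A. cahirinus* days and to 5 at D5 in *M. musculus*, as did the third D0 library there. The third D0 library gave 2 at D5 in *A. cahirinus*. At D15 in *A. cahirinus*, 4 members were called without the first library and 0 without the second, which is the one weighted double. Each of these runs left a single D15 library, which was assumed to vary like the other groups. Leaving out a library of D10 gave 1, 0 and 0, and of D20 0, 1 and 0, in *A. cahirinus*. In *M. musculus* at D20 the count was 1 without any of the D0 libraries and without the second or the third D20 library. The cause of these shifts was not tested. The counts of Oca2, Slc45a2 and Mlana, often under 10 reads per library, limit what can be seen for those genes.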
